A study of Mus musculus with 5 samples.

Results

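Of 4222 piRNAs that the authors listed as differing between testes with and without Mtdh, 580 were 24 to 28 nt long and began with T, the size and first base of piRNAs bound by MILI. They were chosen by the deposited fold: they are the union of 6 tables that compare each Mtdh-/- library with the wild-type group in each direction, so every member had passed a 2-fold threshold in at least 1 comparison. The label rests on length and first base alone, and binding to MILI was not measured. The animals were C57BL/6 mice aged 6 months. Small RNA was sequenced from whole testis of wild-type mice (2 libraries, wild type 1 and wild type 2) and of Mtdh-/- mice, which lack exon 3 of the metadherin gene Mtdh (3 libraries, Mtdh-/- 1, 2 and 3). No other allele or agent is named in the labels, and nothing says whether the libraries came from separate animals. Mtdh is not a small RNA, so the genotype could not be checked in these values.

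piRNAs are small RNAs of the germ line that guide PIWI proteins to matching transcripts, among them RNAs of transposons. In mouse testis MILI (Piwil2) binds shorter piRNAs and MIWI (Piwil1) longer ones, and both favour a U at the first base, which the files write as T. In the adult most testis piRNAs are pachytene piRNAs, cut in series from long noncoding precursor RNAs in meiotic cells. A cycle of mutual cutting between piRNAs of opposite strands leaves partners that overlap by their first bases and an A at the tenth base.

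The members listed in 1 direction in all 3 comparisons have a value in every library, so their sequences are given first, from the deposited tables. The capitals mark the first base, by which they were chosen, and the tenth base. The first 2 were listed as higher and the other 5 as lower, ranked first among 23 by the smallest of their 3 folds.
mmu_piR_002643: TgagaggtgTagaataagtgggaggccc
mmu_piR_026606: TagaatgcaTactgcaaatagataggac
mmu_piR_030213: TagcattgaGcatatgggtagctagct
mmu_piR_039828: TactgttttTaatggagagtcaccta
mmu_piR_010185: TgtaaatggAagtccaagatctagcagt
mmu_piR_007727: TaccccgaaAgagaaggatcgccacag
mmu_piR_022167: TgaccactgCcactggattttcttgg

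piRNAs with overlapping sequences make up a second set, shown because all of them were listed as higher in Mtdh-/- 1. The capitals mark bases shared with at least 1 other piRNA of the same set. In the first set mmu_piR_025264 and mmu_piR_027275 are members, and the other 2 are longer listed piRNAs of 30 nt.
mmu_piR_013749: tccaTGCCTCTGAGAATGTGATACTGCTGT
mmu_piR_028732: TGCCTCTGAGAATGTGATACTGCTGTCTGA
mmu_piR_025264: TCTGAGAATGTGATACTGCTGTCTGAGG
mmu_piR_027275: TGAGAATGTGATACTGCTGTCTGAGGga
In the next set mmu_piR_025647 and mmu_piR_036369 are members.
mmu_piR_024611: cTGTTTCTTACTGAAGCGTGATTAGCCTGT
mmu_piR_025647: TGTTTCTTACTGAAGCGTGATTAGCCT
mmu_piR_012862: TTACTGAAGCGTGATTAGCCTGTGGCAGt
mmu_piR_036369: TACTGAAGCGTGATTAGCCTGTGGCAG

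The member with the highest wild-type mean has the sequence of a miRNA with 1 more base at its end. Its first 23 bases are the whole of miR-871-5p, an X-linked miRNA of the germ line, and a second member, mmu_piR_015378, begins with the whole of miR-741-3p from the same chromosome. The mature miRNAs are from RefSeq (GRCm38.p6) and are written with U, and the capitals mark the miRNA seed, bases 2 to 8.
mmu_piR_031037: tATTCAGAttagtgccagtcatgt
mmu-miR-871-5p: uAUUCAGAuuagugccagucaug
mmu_piR_015378: tGAGAGATgccattctatgtagat
mmu-miR-741-3p: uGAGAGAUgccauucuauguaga

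Most members sat at the long end of the size window. There were 13 of 24 nt, 35 of 25 nt, 114 of 26 nt, 172 of 27 nt and 246 of 28 nt, so 42.4% were at the upper limit. Of the remaining listed piRNAs that began with T, 2230 were 29 or 30 nt long, the size of piRNAs bound by MIWI, 1030 were longer and 17 were shorter than 24 nt. A further 365 began with another base. The median share of G and C was 46.4% in the members, 43.3% at 29 to 30 nt and 41.9% at 31 nt or longer.

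Before the values, 2 properties of the libraries bear on all of them. The values are tags scaled by the authors. The step that best made low values whole multiples was taken as 1 tag. It was 0.659 in wild type 1, 0.445 in wild type 2, and 0.31, 1.05 and 0.568 in Mtdh-/- 1, 2 and 3. The step accounted for 94.2 to 98.0% of low values as whole tags in 4 libraries and for 73.9% in wild type 2, so no counts could be recovered. A whole tag was a value within 0.05 scaled units of a multiple, a wide margin beside the step of 0.31. The library with the largest step, Mtdh-/- 2, was the shallowest in miRNA counts too (119288, against 199968 to 723251 in the others) and had the most listed members. The part of depth in that number was not tested. As a check of the tissue, all 6 germ-cell miRNAs of a fixed list were counted in every library, among them miR-34c-5p at 5424 to 49183 CPM (counts scaled to the same total of miRNA counts in each library). The lowest of the 6 was miR-741-3p, at 45.6 to 251 CPM. Of 8 miRNAs listed for other tissues 7 had values. The brain miRNA miR-124-3p was at 0 in all 5 libraries, but miR-9-5p, also of the brain list, was at 230 to 906 CPM. In the muscle list miR-1a-3p was at 268 to 1743 CPM and miR-133a-3p at no more than 41.5 CPM. In the blood list miR-451a was at 49.8 to 193 CPM and miR-144-3p at no more than 16.8 CPM, and the liver miRNA miR-122-5p reached at most 41.9 CPM. The same miRNA counts showed that wild type 1 lay nearest to Mtdh-/- 3. Over 235 miRNAs with a mean of at least 50 CPM the median absolute difference between those libraries was 0.55 on the log2(CPM + 1) scale, against 0.86 to 0.99 for the other 9 pairs of libraries. Wild type 1 and wild type 2 differed by 0.98. In whole testis, fewer germ cells of a stage and less of a piRNA per cell cannot be told apart.

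The authors' fold is the Mtdh-/- value plus 10 divided by the wild-type mean plus 10, and a piRNA was listed at 2-fold or more on that scale. In Mtdh-/- 1, 228 members were listed, 135 as higher (59.2%) and 93 as lower. Of all piRNAs listed in that comparison 55.3% were higher and 44.7% lower. In Mtdh-/- 2, 359 members were listed, 197 as higher (54.9%) and 162 as lower, where all listed piRNAs split into 50% and 50%. In Mtdh-/- 3 the split was the reverse. There 136 members were listed, 40 as higher (29.4%) and 96 as lower, beside 35.3% and 64.7% of all listed piRNAs. In each comparison the split of the members was within 6 percentage points of that of all listed piRNAs. The share listed as higher in Mtdh-/- 1, 2 and 3 was 56.1%, 48.7% and 12.9% among members of 26 nt, 53.7%, 57.0% and 37.0% at 27 nt and 65.1%, 55.7% and 35.3% at 28 nt, with no steady order by length in Mtdh-/- 1, 2 or 3. Median folds were alike in size, 2.37, 2.49 and 2.18 among members listed as higher and 2.33, 2.42 and 2.44 among those listed as lower. Since the folds chose the members, these numbers describe them and are not tested.

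The fold treats the directions unequally with respect to the separate wild-type libraries. A value 2-fold above the wild-type mean on this scale exceeds the sum of both wild types, so all 135, 197 and 40 members listed as higher lay above both by construction. A lower listing can rest on 1 high wild type. Of the members listed as lower, 63 of 93, 122 of 162 and 47 of 96 lay below both. Together 86.8% of listings in Mtdh-/- 1 lay outside both wild types in their direction (83.3% over all listed piRNAs), 88.9% in Mtdh-/- 2 (88.9%) and 64.0% in Mtdh-/- 3 (67.3%). A stricter count takes only members past 2-fold against each wild type by itself. It kept 80 of 135, 136 of 197 and 14 of 40 members listed as higher, and 16 of 93, 25 of 162 and 1 of 96 listed as lower. These counts reuse the values behind the listing, and part of the gap between directions is built into the fold. The 1 member kept as lower in Mtdh-/- 3 was mmu_piR_018864, at 21.1 and 23.8 in the wild types, 3.1 in Mtdh-/- 2 and 4 in Mtdh-/- 3. Over all listed piRNAs the stricter count kept 41.9%, 45.8% and 9.38% of listings, and over members 42.1%, 44.8% and 11%. The directions were less alike than these pooled shares. Of higher listings it kept 59.3%, 69.0% and 35.0% in members, beside 67.6%, 71.2% and 22.7% over all listed. Of lower listings it kept 17.2%, 15.4% and 1.04% in members, beside 9.90%, 20.4% and 2.11%.

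**Figure D1:**
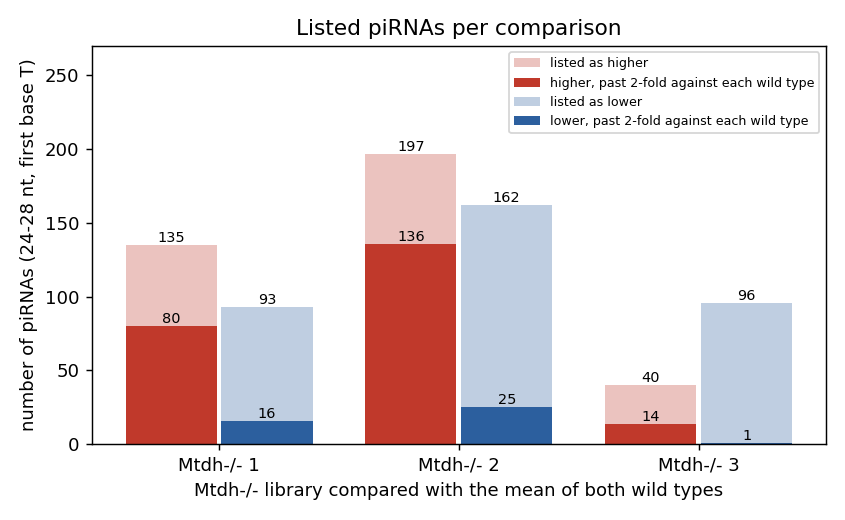
Number of members listed as higher (red) or lower (blue) in each Mtdh-/- library against the mean of both wild types; the dark part of each bar is the number also past 2-fold against wild type 1 and wild type 2 taken separately. The fold was kept by 80 of 135 and 136 of 197 higher listings in Mtdh-/- 1 and 2 and by 1 of 96 lower listings in Mtdh-/- 3; part of the gap between directions is built into the fold.

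The lower listings went with a high wild type 2, most fully in Mtdh-/- 3. The median value of all 580 members was 10.75 in wild type 1 and 21.8 in wild type 2, and 200 members (34.5%) were at least 2-fold apart between these libraries on the same scale, 158 of them with wild type 2 on top. Over all listed piRNAs 38.1% were (1609 of 4222), 1056 of them with wild type 2 on top, so the wild types differed over the whole list. Among members listed as lower in Mtdh-/- 3, 92 of 96 were at least 2-fold apart, 91 of them higher in wild type 2, with medians of 7.2 in wild type 1 and 58.65 in wild type 2. The Mtdh-/- 3 value lay nearer to wild type 1 in 97.9% of these members, and in 98.5% of all piRNAs listed as lower there. Measured against wild type 1 alone, 3 of these 96 members remained past 2-fold and 46 were above it, and the median difference from wild type 1 was 0 on the log2(value + 10) scale. The members listed as higher leaned the other way in Mtdh-/- 3. There wild type 1 was on top in all 11 that were 2-fold apart, whereas in Mtdh-/- 2 the wild types differed by that much in 11.2% of 197 and stood on top in equal numbers, 11 each. In Mtdh-/- 1, 67 of the 93 lower members were 2-fold apart, 50 with wild type 2 on top and 17 with wild type 1. In Mtdh-/- 2, 98 of the 162 were, 81 with wild type 2 on top and 17 with wild type 1. Of the 135 members listed as higher in Mtdh-/- 1, 24 were 2-fold apart, all with wild type 2 on top. Against wild type 1 alone, 40 of 93 and 61 of 162 lower listings remained, and 22 and 34 changed sign. Which wild type is typical cannot be told from a pair of libraries.

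**Figure D2:**
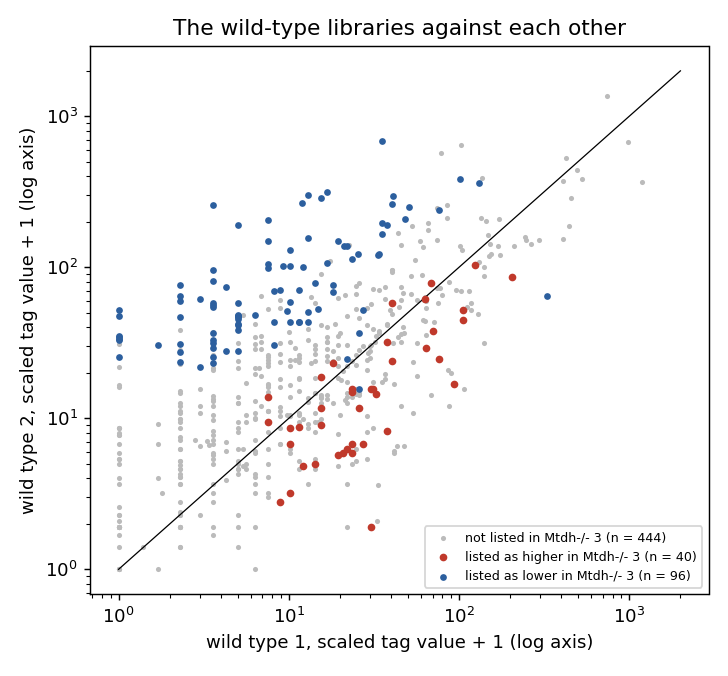
Scaled tag values plus 1 (log axes) of all 580 members in wild type 1 and wild type 2; blue points were listed as lower in Mtdh-/- 3, red points as higher and grey points not listed there, and the line marks equal values. Of the 96 blue points 91 lie at least 2-fold towards wild type 2, counted with 10 added to each value.

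Few members were listed in the same direction throughout. A single table held 466 of the 580 (80.3%, beside 78.9% of all listed piRNAs). There were 2 members listed as higher in all 3 comparisons (0.345% of members, beside 0.332% of all listed piRNAs), and such a listing places every Mtdh-/- value above both wild types. mmu_piR_002643 was at 6.6 in wild type 1 and 8.4 in wild type 2, and at 105, 41.9 and 85.2 in Mtdh-/- 1, 2 and 3. The wild-type mean of 7.5 ± 1.27 (SD over 2 libraries) compared with 77.4 ± 32.3 over the 3 Mtdh-/- libraries, with folds of 6.57, 2.97 and 5.44. Every Mtdh-/- library was high and the wild types were close to each other. mmu_piR_026606 was at 9.2 and 5.8 in the wild types and at 30.4, 77.6 and 30.7 in Mtdh-/- 1, 2 and 3, a mean of 7.5 ± 2.40 against 46.2 ± 27.2. Mtdh-/- 2 stood highest, and the other Mtdh-/- libraries were close to each other. Neither matched an annotated transcript.

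The 23 members listed as lower in all 3 comparisons (3.97%, beside 5% of all listed piRNAs) looked different. Wild type 2 was the highest of the 5 libraries for every one of them except mmu_piR_038781. mmu_piR_030213 was at 6.6 in wild type 1 and 203.5 in wild type 2, and at 4, 0 and 6.8 in Mtdh-/- 1, 2 and 3. The SD of its wild-type mean was above the mean itself (105 ± 139, 2 libraries), and the groups overlapped. mmu_piR_039828 was at 11.9 and 301.7 in the wild types and at 15.2, 15.7 and 10.8 in the Mtdh-/- libraries, and again wild type 1 lay among the Mtdh-/- values. mmu_piR_010185 was at 4 and 191 in the wild types and at 6.8, 6.3 and 2.3 in Mtdh-/-. mmu_piR_007727 was at 2.6 and 258.3 in the wild types and at 21.7, 23.1 and 5.7 in Mtdh-/-, so wild type 1 was the lowest library. mmu_piR_022167 was at 1.3 and 63.3 in the wild types and at 2.2, 2.1 and 2.3 in Mtdh-/-, with wild type 1 again lowest. Across the 23, wild type 1 ran from 0 to 329.2 with a median of 6.6, and wild type 2 from 29.8 to 690.4 with a median of 72.6. The medians of Mtdh-/- 1, 2 and 3 were 8.3, 4.2 and 5.7, on either side of wild type 1. Only 4 of the 23 had all Mtdh-/- libraries below both wild types, among them mmu_piR_017677, at 26.3 and 50.9 in the wild types and 8.7, 10.5 and 12.5 in Mtdh-/-. The exception, mmu_piR_038781, was at 329.2 in wild type 1 and 64 in wild type 2 and at 82, 52.4 and 56.8 in Mtdh-/-, so that wild type 1 alone was high.

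**Figure D3:**
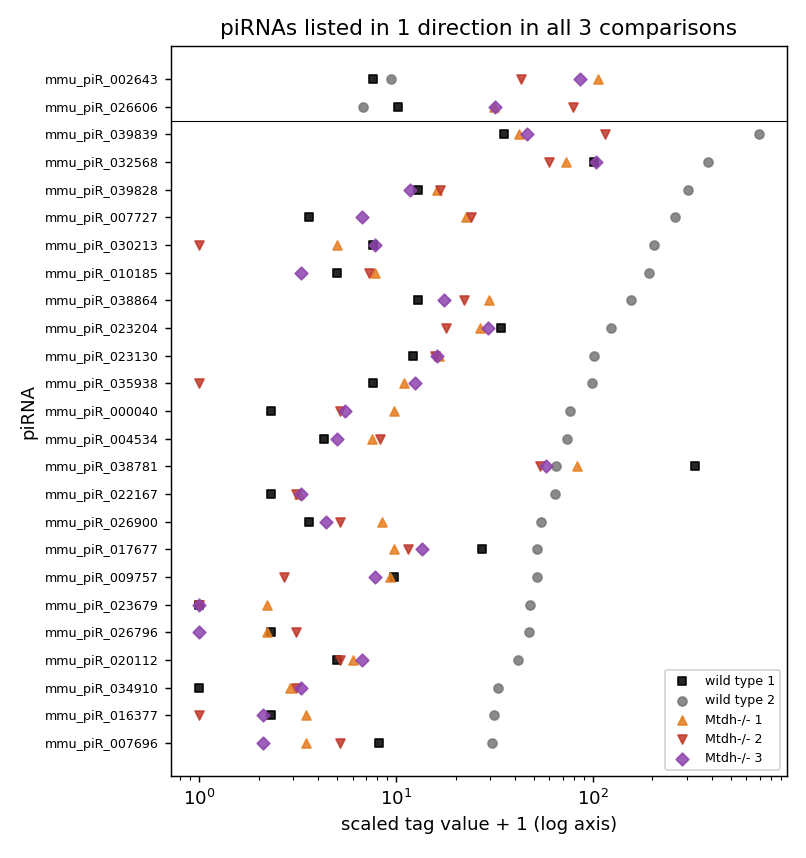
Scaled tag values plus 1 (log axis) in all 5 libraries for the 25 members listed in 1 direction in all 3 comparisons, with the 2 higher members above the line and the 23 lower members below it, ordered by wild type 2. Above the line all Mtdh-/- points lie to the right of both wild types. Below it wild type 2 lies furthest right in every row except that of mmu_piR_038781. There Mtdh-/- 1, 2 and 3 lie to the right of wild type 1 in 15, 13 and 13 of the 23 rows.

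With those 25 included, 15 members were listed as higher in at least 2 tables (2.59%, beside 4.14% of all listed piRNAs). As lower, 83 were (14.3%, beside 13.6%). Past 2-fold against each wild type separately in at least 2 comparisons were 11 members, chosen here after their values were seen: 7 higher, 3 lower and 1 in both directions. The same was not counted over all listed piRNAs. mmu_piR_015972, the most abundant of the higher members, was at 122.5 and 103.3 in the wild types, 389.8 in Mtdh-/- 2 and 284 in Mtdh-/- 3. mmu_piR_021021 was at 15.8 and 30.8 in the wild types, 118.8 in Mtdh-/- 1 and 85.9 in Mtdh-/- 2. A higher listing sets both above the wild types by construction, and neither has a value in the remaining Mtdh-/- library. On the lower side mmu_piR_017808 was at 94.8 and 69.7 in the wild types, 11.8 in Mtdh-/- 1 and 18.9 in Mtdh-/- 2, folds of -4.23 and -3.19. mmu_piR_002668 was at 36.9 and 40.9 in the wild types and at 12.4 and 10.5 in Mtdh-/- 1 and 2. In these lower members the wild types were close to each other and both high.

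The 3 largest folds up in Mtdh-/- 2 were each listed in that library alone. Members with the largest folds down were listed in more than 1 comparison. In Mtdh-/- 2 mmu_piR_038370 (TaagcagagAaggaacttctaaggg, with the first and the tenth base in capitals here and below) stood at 874, against 70.4 and 42.2 in the wild types, the largest fold of all members at 13.3. mmu_piR_020628 (TatgaaagaAtagcagaaacagggaacc) followed at 176.1 against 6.6 and 3.1, and mmu_piR_038587 (TcagcaactGtctcagatctgacgggg) at 855.1 against 113.2 and 68.4. None of the 3 was listed in Mtdh-/- 1 or 3, where no values are given for them. They were under 2-fold there if the lists are complete, which could not be checked for absent values. In Mtdh-/- 1 the largest fold, 7.08, was that of mmu_piR_034348, at 205 against 15.8 and 24.9. In Mtdh-/- 3, after mmu_piR_002643, mmu_piR_015822 was at 37.5 against 7.9 and 1.8, and mmu_piR_019580 at 52.3 against 14.5 and 8. The lowest folds after those already given belonged to mmu_piR_039839, at 34.2 and 690.4 in the wild types and 41, 113.2 and 45.4 in Mtdh-/-, and to mmu_piR_018748, at 11 and 264.5 in the wild types, 10.5 in Mtdh-/- 2 and 11.7 in Mtdh-/- 3. In both, wild type 2 alone was high.

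Apart from the miRNA, the 4 members with the highest wild-type mean were all listed as lower in Mtdh-/- 1. The wild-type mean is the divisor of the fold, so ranking listed piRNAs by it favours lower listings. The highest member value in Mtdh-/- 1, 1163.4, was that of mmu_piR_027275, which was listed as higher there. mmu_piR_035702 (TcagaactcAaactagcgtggccc) was at 980.1 and 678.6 in the wild types and 349.1 in Mtdh-/- 1. mmu_piR_038800 was at 426.6 and 532.2 against 192.6, and mmu_piR_026073 at 495.1 and 439.4 against 176.1. In all 3 the Mtdh-/- 1 value was below both wild types, and the folds were -2.34, -2.42 and -2.56. mmu_piR_022941 was at 1194.2 in wild type 1 but 367.9 in wild type 2, so its 328.8 in Mtdh-/- 1 and 372 in Mtdh-/- 2 lay near wild type 2.

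The member with the sequence of a miRNA, mmu_piR_031037, was high in Mtdh-/- 2, where the miRNA was high too. It was at 741.3 and 1357.7 in the wild types and 2617.8 in Mtdh-/- 2, a fold of 2.48, and was not listed in Mtdh-/- 1 or 3. In the separately deposited miRNA counts miR-871-5p was at 2705 and 6306 CPM in wild type 1 and 2, 3896 in Mtdh-/- 1, 10261 in Mtdh-/- 2 and 3673 in Mtdh-/- 3. Mtdh-/- 2 was 2.28 times the wild-type mean and the other Mtdh-/- libraries lay between the wild types. mmu_piR_015378 was at 22.4 and 23.1 in the wild types and 73.4 in Mtdh-/- 2. miR-741-3p was at 70.0 and 91.6 CPM in the wild types, 251 in Mtdh-/- 2, and 45.6 and 49.8 in Mtdh-/- 1 and 3, from 13 to 44 counts in a library. Again Mtdh-/- 2 stood highest in the miRNA counts. Neither member has a piRNA value in Mtdh-/- 1 or 3, so their piRNA values cannot show that Mtdh-/- 2 alone was high. Both measurements come from the same libraries.

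Members that shared sequence were mostly listed in the same direction. A stretch of at least 16 bases was shared with another listed piRNA by 161 members (27.8%), in 195 pairs of a member with any listed piRNA. Another member shared it in the case of 50. Where both piRNAs of a pair were listed in a comparison, the direction was the same in 74 of 77 cases in Mtdh-/- 1, 86 of 98 in Mtdh-/- 2 and 25 of 25 in Mtdh-/- 3. The share with such a stretch was not counted over the other listed piRNAs, nor the agreement of pairs without shared sequence. Pairs can agree through the split of listings alone. Of listed members 59.2%, 54.9% and 29.4% were higher in Mtdh-/- 1, 2 and 3. Overlapping sequences can share reads in the authors' counting, so they are not independent. In the set printed first above, mmu_piR_027275 was at 102.3 and 646.3 in the wild types, 1163.4 in Mtdh-/- 1 and 78.6 in Mtdh-/- 2. mmu_piR_025264, which begins 2 bases upstream, was at 77.2 and 569.8 in the wild types, 928.2 in Mtdh-/- 1 and 63.9 in Mtdh-/- 2. These members were high in wild type 2 and Mtdh-/- 1 and low in wild type 1 and Mtdh-/- 2, so each was listed as higher in one table and as lower in the other. The longer mmu_piR_028732 was at 20.6 and 50.7 in the wild types and 242.6 in Mtdh-/- 1, and mmu_piR_013749 at 6.6 and 7.8 against 68.1. All 4 were listed as higher in Mtdh-/- 1, but mmu_piR_013749 was not high in wild type 2, and the longer forms were not listed in Mtdh-/- 2.

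In the next set only Mtdh-/- 1 was listed. mmu_piR_025647 was at 1.3 and 1.4 in the wild types and 39.2 in Mtdh-/- 1, and mmu_piR_036369 at 6.6 and 14 against 80. Their longer neighbours mmu_piR_024611 and mmu_piR_012862 were at 525.7 and 342 in Mtdh-/- 1, against 81 and 58.7 and against 30.3 and 28.1 in the wild types. The 4 overlapping piRNAs were high in the same single library. Sharing sequence did not always mean sharing direction. mmu_piR_007696, a member of 26 nt, was at 7.2 and 29.8 in the wild types and 2.5, 4.2 and 1.1 in Mtdh-/-, while mmu_piR_012331 of 29 nt, which overlaps it, was at 20.8 and 79.8 in the wild types, 116.3 in Mtdh-/- 1 and 365.2 in Mtdh-/- 2.

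In all, 16 members (2.76%, beside 3.34% of all listed piRNAs) were listed as higher in one table and as lower in another. Besides the overlapping pair, mmu_piR_034107 was at 44.8 and 72.8 in the wild types, 278.3 in Mtdh-/- 1 and 9.4 in Mtdh-/- 2, past 2-fold against each wild type in opposite directions. mmu_piR_023185 was at 7.2 and 68.9 in the wild types, 254.6 in Mtdh-/- 1, 6.3 in Mtdh-/- 2 and 6.2 in Mtdh-/- 3. mmu_piR_028746 was at 13.8 and 51.8 in the wild types, 268 in Mtdh-/- 1 and 5.1 in Mtdh-/- 3. In these 3 members Mtdh-/- 1 was above both wild types and every other Mtdh-/- value was below both. Others went the opposite way, among them mmu_piR_009151, at 9.2 and 129.7 in the wild types and 8.1, 184.4 and 6.8 in Mtdh-/- 1, 2 and 3, where Mtdh-/- 2 alone was above both. mmu_piR_010224 was at 36.9 and 7.3 in the wild types and 2.5, 4.2 and 57.9 in Mtdh-/-, where Mtdh-/- 3 alone was.

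A longer listed piRNA with the same first 20 bases was found for 6 members (1.03%), not all of which match it to their last base. In the pair below, shown to make the shared end visible, the capitals mark the shared bases.
mmu_piR_015341: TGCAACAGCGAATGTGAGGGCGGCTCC
mmu_piR_015709: TGCAACAGCGAATGTGAGGGCGGCTCCcta
The member of 27 nt was at 24 and 65.4 in the wild types and 114.9 in Mtdh-/- 1, and the form of 30 nt at 33.2 and 79.2 against 158.4. Both forms were in the same order over the libraries. mmu_piR_014142 was at 28 and 52.9 in the wild types and 317.6 in Mtdh-/- 1, and the listed piRNA of 29 nt with the same start, mmu_piR_007582, at 60.3, 172.6 and 351.2. mmu_piR_013957 was at 17.8 and 41 in the wild types and 185.5 in Mtdh-/- 2, with its form of 30 nt, mmu_piR_013340, at 78.3 and 287.1 against 612. In Mtdh-/- 1 the form of 30 nt was listed as lower, at 85.4. mmu_piR_022987 went the other way. It was at 31.8 in wild type 1, 1.1 in wild type 2, 1.5 in Mtdh-/- 1 and 0.8 in Mtdh-/- 2. The listed piRNA of 31 nt with the same start, mmu_piR_032661, which does not share the last base of mmu_piR_022987, was at 509.6, 58.1, 57.1 and 108.1 in these libraries and at 622.8 in Mtdh-/- 3, so wild type 1 and Mtdh-/- 3 were high.

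Few members had a listed piRNA complementary to their first bases. Only 5 members (0.862%) had a listed piRNA whose first 10 bases were the reverse complement of their own, against 92 of 3642 other listed piRNAs (2.53%). These matches rest on sequence alone. No genome was searched, so their strands are unknown, and piRNAs that were not listed could not be found. How many would match by coincidence was not estimated. An A at the tenth base is the other mark of mutual cutting. It was held by 30% of members (95% Wilson interval 26.4 to 33.9, counting error only), 32.3% at 29 to 30 nt and 31.2% at 31 nt or longer. It was held by 43.6% of the listed piRNAs that do not begin with T (38.6 to 48.7). In the pair below both piRNAs are members, and the capitals mark the bases that pair.
mmu_piR_007348: TAAGTTCTCAaagcctgctcccagtga
mmu_piR_025053: TGAGAACTTAaccttgttatgggggtct
mmu_piR_007348 was at 9.2 and 7.6 in the wild types, 77.6 in Mtdh-/- 2 and 28.4 in Mtdh-/- 3. mmu_piR_025053 was at 26.3 and 29.3 in the wild types and 7.5 in Mtdh-/- 1. These paired sequences were listed in different libraries and in opposite directions.

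At the second base, G was held by 43.4% of members (39.5 to 47.5) and A by 35.2% (31.4 to 39.1). G was held by 35.0% (33.1 to 37.0) at 29 to 30 nt and by 40.3% (37.3 to 43.3) at 31 nt or longer, an interval that overlaps that of the members. The second base went with the direction of listing in Mtdh-/- 2. There A was held by 96 of 197 members listed as higher (48.7%) and 42 of 162 listed as lower (25.9%), and G by 32.0% and 52.5%. The other listed piRNAs that begin with T showed the same split in that library, with A in 54.5% of higher and 23.1% of lower listings. In Mtdh-/- 1, G was likewise less frequent among members listed as higher (39.3%) than among those listed as lower (58.1%), with 30.1% and 47.8% in the other listed piRNAs that begin with T. In Mtdh-/- 3 the order turned, with G in 60.0% of 40 higher and 40.6% of 96 lower members, beside 45.6% and 39.6% in the others. These shares are descriptions, since overlapping piRNAs share bases.

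An exact match to an annotated transcript (GENCODE M21, GRCm38) was found for 89 members (15.3%), in sense orientation for 77 (13.3%, beside 12.1% of the other listed piRNAs). No genome sequence was searched, so the remaining members have no position here. Of 70 with a sense match to a single gene, 59 lay in long noncoding RNAs, beside 313 of 411 among the other listed piRNAs. Gm49794, a lincRNA at chr17:27354111-27367492 on the plus strand, held 17 members and 48 listed piRNAs in all. Gm10505 just upstream at chr17:27325035-27344833, and Gm21269 at chr7:73816546-73838898, both on the plus strand, held 7 members each. Both regions are known sources of pachytene piRNAs in mouse. Tbl2 was the only protein-coding gene with more than 1 member matching it alone, both in its UTR and both listed as higher in Mtdh-/- 2. Over all 12 listed piRNAs of Tbl2, 4 were higher and 8 lower in that library, 3 were lower in Mtdh-/- 1 and 6 in Mtdh-/- 3.

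Members from a single precursor went in both directions. The sequences below lie in exon 1 of Gm49794 and are shown in their order along it, with the first and the tenth base in capitals.
mmu_piR_038461: TagtttcctCgcctgtaaagtcaggg
mmu_piR_010353: TggatttagAcctctagccagcctct
mmu_piR_008249: TaggagcctGatccagagagaaagagg
mmu_piR_024979: TatagtcatCtatagtcctaatgcccc
mmu_piR_016994: TagtcatctAtagtcctaatgcccccc
mmu_piR_028860: TgctagtctTgaaggtagagaggc
mmu_piR_038354: TaatcttggGtgggtggctgctcc
mmu_piR_002157: TgaaccctgGgcaagccacatgagcag
mmu_piR_014082: TgaagtgagCgccctctgtactgtggtc
mmu_piR_038363: TgttggtttGggcctctcagaagggca
Of the 17 members of Gm49794, 3 were listed as higher and 2 as lower in Mtdh-/- 1, 6 and 2 in Mtdh-/- 2, and 1 and 6 in Mtdh-/- 3. Over all 48 listed piRNAs of this transcript the numbers were 13 and 4, 20 and 8, and 5 and 7. The 6 lower members in Mtdh-/- 3 had 1 pattern. mmu_piR_038461 was at 4 in wild type 1, 46.6 in wild type 2 and 5.7 in Mtdh-/- 3, and mmu_piR_038354 at 4, 46.9 and 4.5. mmu_piR_038363 was at 4, 47.5 and 7.4, and mmu_piR_028860 at 4, 57.3 and 5.7, with 8.4 in Mtdh-/- 2. The overlapping mmu_piR_024979 and mmu_piR_016994 were at 34.2 and 39.5 in wild type 1, 194.7 and 260.9 in wild type 2, and 42.6 and 54 in Mtdh-/- 3. In all 6 wild type 2 was high and Mtdh-/- 3 lay close to wild type 1.

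Other members of Gm49794 were high in a different library. mmu_piR_008249 (chr17:27356577-27356603) was at 63.2 and 52.4 in the wild types and 377.3 in Mtdh-/- 2. mmu_piR_014082 (chr17:27357565-27357592) was at 65.2 and 176.6 against 367.8 in Mtdh-/- 1. Each stood above both wild types in the 1 comparison in which it was listed, as any higher listing does by construction. mmu_piR_002157 (chr17:27357437-27357463) was at 86.9 and 11.1 in the wild types, 12.4 in Mtdh-/- 1 and 125.8 in Mtdh-/- 2, listed as lower in one table and higher in the other. mmu_piR_010353 (chr17:27356139-27356164) was at 42.1 in wild type 1 but 5.6 in wild type 2, 5.9 in Mtdh-/- 1 and 1 in Mtdh-/- 2. Here wild type 1 alone was high.

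**Figure D4:**
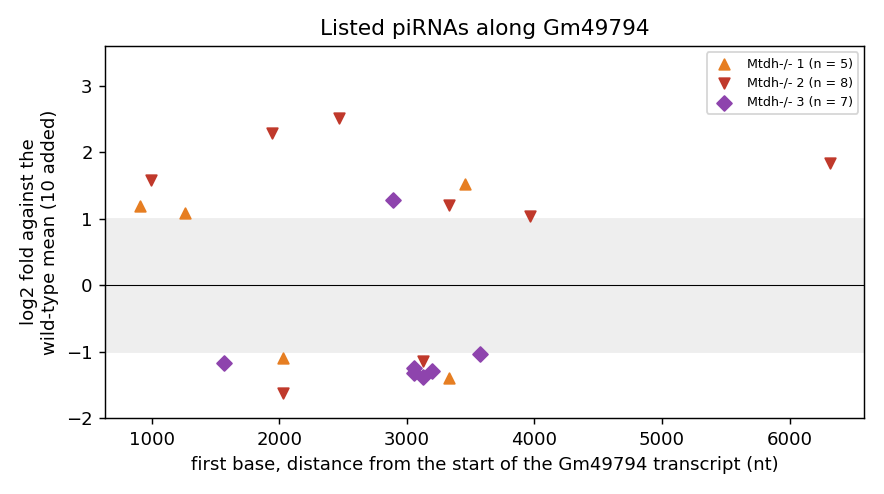
Log2 fold against the wild-type mean (10 added to each value) of the 17 members that match Gm49794, plotted by the distance of their first base from the start of the transcript, for each comparison in which they were listed; the grey band holds folds under 2, which are not listed. Higher and lower members are interspersed along the transcript, and 6 of the 7 listings in Mtdh-/- 3 lie below the band.

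Gm21269 and Gm10505 were mixed as well. In Gm21269 the overlapping members mmu_piR_025626 and mmu_piR_039315 were at 22 and 29.3 in Mtdh-/- 2, against 0 and 3 and against 4 and 5.3 in the wild types, and 3 longer listed piRNAs overlapping them were higher in Mtdh-/- 2 too. From the same transcript mmu_piR_033991 was at 30.3 and 16.4 in the wild types and 6.3 in Mtdh-/- 2, and the abundant mmu_piR_022941 was among its lower members. In Gm10505, mmu_piR_038254 was at 7.9 and 5.8 in the wild types and 41.9 in Mtdh-/- 2, whereas mmu_piR_038453 was at 52.7 and 22.7 against 13.6. No transcript with at least 3 members had all its listings in 1 direction. mmu_piR_027661 matched the UTR of Ago2, the gene of an Argonaute protein of the miRNA pathway, and was at 1.3 and 0.9 in the wild types and 14.9 in Mtdh-/- 1.

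At the edge of the threshold, mmu_piR_010804 was listed as lower in Mtdh-/- 1 at a fold of exactly -2, with 2.6 and 32.2 in the wild types and 3.7 in Mtdh-/- 1. mmu_piR_012174 was listed as higher in Mtdh-/- 2 at 2, with 21.1 and 12.9 against 44, and mmu_piR_023244 in Mtdh-/- 3 at 2.01, with 29.6 and 14.7 against 54.5. Just outside were mmu_piR_021054 at 1.98 in Mtdh-/- 1, mmu_piR_008428 at 1.998 in Mtdh-/- 2 and mmu_piR_023422 at 1.93 in Mtdh-/- 3, which are members through another comparison.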

How the data were processed

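Per the labels' protocols, a mirVana kit was used on frozen testes and an Illumina TruSeq kit for the libraries. Novoalign 2.07.11 is named in the submitters' processing notes. For the build and the counting rule, the sources used here give nothing. The authors deposited scaled tag values per piRNA (a signal of unstated scaling) and a fold score, signed and computed after adding 10, restricted to piRNAs past the threshold. The number of piRNAs measured is therefore unknown. Values for libraries in which a piRNA was not listed came from 8 deposited group tables where these held it, and 33 members had values in all 5 libraries. Recomputed folds matched the deposited scores for all 5371 listings, and no available value past 2-fold was missing from the lists. For the tissue check the authors' deposited raw counts of all isoforms per mature miRNA were scaled to CPM.

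The members, the lists and the naming rule were chosen with earlier results of these data known. Named members were: up to 5 in each direction in all 3 tables by smallest fold, and 3 with the largest fold up and down per comparison. Also named were the 5 with the highest wild-type mean and up to 5 listed in both directions. The nearest to the threshold and up to 3 pairs sharing a 5′ end completed the rule. Others were named after their values were seen. Sequences were matched exactly on both strands to GENCODE M21 transcripts in place of a genome (Python 3.11.15, pandas 2.3.3), after a check on simulated sequences. No test across piRNAs was made, since the folds chose them and each table holds 1 Mtdh-/- library. Alternatives were other added values, a higher fold, a floor on low values, each library left out, other lengths and shorter matches.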

Additional observations from a re-analysis of the deposited data

How the results depend on the processing

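The listed counts depended on the size of the fold and on wild type 2. The files hold only piRNAs past 2-fold, so counts could fall but not rise. With 1 added in place of 10 no count could change, since a smaller added value moves every fold further from 1. With 50 added, 22 members were past 2-fold as higher and 19 as lower in Mtdh-/- 1, 41 and 20 in Mtdh-/- 2, and 2 and 10 in Mtdh-/- 3. At a fold of at least 4 the numbers were 20 and 11, 26 and 13, and 1 and 9. Among members with a mean of at least 50 they were 28 and 29, 50 and 49, and 12 and 28. With 1 wild type left out, 40 to 69 members were lower in Mtdh-/- 1, 61 to 126 in Mtdh-/- 2 and 3 to 94 in Mtdh-/- 3, the lowest number without wild type 2 each time. Higher members ranged from 95 to 120, 165 to 168 and 16 to 38. With 1 Mtdh-/- library left out, 3 to 9 members were higher and 34 to 52 lower in at least 2 tables, where 15 and 83 were with all 3, and at 4-fold 1 and 9 were. The lowest numbers came without Mtdh-/- 2, which had the most listed members. Leaving out any library could only lower these numbers, since both remaining tables must then hold the member. An A at the tenth base was held by 25.2% of members of 25 to 27 nt.

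A different added value cannot change the sign of a log2 fold. Of 224 values of named members under these alternatives 17 changed sign, 16 of them without wild type 2. Their log2 folds without wild type 1 and without wild type 2, in that order, were -3.08 and 1.33, -3.02 and 1.39, and -4.10 and 0.32 in Mtdh-/- 1, 2 and 3 for mmu_piR_007727. They were -2.59 and 0.11, -2.60 and 0.10, and -2.58 and 0.12 for mmu_piR_022167, and -3.78 and 0.21, -2.51 and 1.48, and -3.66 and 0.33 for mmu_piR_039839. In Mtdh-/- 1 and 2 they were -3.58 and 0.26, and -3.62 and 0.22, for mmu_piR_010185, and -3.63 and 0.20, and -3.60 and 0.23, for mmu_piR_039828. For mmu_piR_010804 in Mtdh-/- 1 they were -1.62 and 0.12. In Mtdh-/- 3 they were -3.66 and 0.047 for mmu_piR_018748 and -3.67 and 0.017 for mmu_piR_030213. For mmu_piR_022941 in Mtdh-/- 2 they were 0.016 and -1.66. No paired analysis was possible because the results come from no test and each table sets 1 Mtdh-/- library against the mean of both wild types. The largest tag step, 1.05 in Mtdh-/- 2, makes low values there the least precise.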
